A study of Bos taurus with 9 samples.

Results

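The comparison described here sets nucleus pulposus cells held in added salt for 24 h against cells held in it for 5 h. It uses 6 of the 9 arrays of the series, 3 for each exposure, chosen by their labelled treatment and time and joined into 3 pairs by the replicate number in the labels. The cells came from caudal intervertebral discs of young calves (Bos taurus) and were grown in DMEM with fetal bovine serum. Salt brought the medium to a final osmolality of 500 mOsm/kg in both groups, so the exposure time is the labelled difference between them. No genetic change and no other agent is labelled. The labels call the replicates biological but do not say whether they were separate animals or cultures of pooled cells, so a p-value here reflects only how far these cultures differ, which may be partly technical. A longer exposure is also a longer time in culture, and these cannot be told apart here. The 3 untreated arrays entered neither the fit nor the calls, and they are used only to place levels in a closing description.

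The nucleus pulposus is the hydrated centre of the disc, and its cells live among sulphated proteoglycans whose fixed charge draws in cations and water. Cells in a medium of raised osmolality first lose water and later accumulate organic osmolytes, ion pumps and protective proteins, partly under the transcription factor NFAT5. AKR1B1, which makes sorbitol, SLC38A2, which carries neutral amino acids, and the amino acid carrier SLC6A6 are known members of that programme. Early after an osmotic shock, growth and protein synthesis are commonly slowed. Setting 24 h against 5 h asks which transcripts differed between the early and the later part of the same exposure.

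Replicate number had a large effect on these arrays. In a principal component analysis of the 6 arrays, component 1 held 50% of the variance and set both arrays numbered 3 apart from the other 4. Component 2 held 38.5% and separated the times, with scores of 26.5 to 51.6 at 5 h and of -47.5 to -12.9 at 24 h. The median intensity of an array was 67.1 to 75.2 at 5 h and 74.8 to 84.5 at 24 h. The 3′ to 5′ log2 ratio of the actin control probe sets was 2.37 to 2.90 at 5 h and 2.83 to 3.31 at 24 h, and that of GAPDH was -0.03 to 0.06 and 0.01 to 0.04. The part of array brightness and RNA quality in the differences was not tested.

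In the values as deposited, more transcripts rose than fell between 5 h and 24 h, except among the brightest. Intensities were compared as log2(value + 16) with limma, with the replicate number as a block, and a probe set was called at an adjusted p under 0.05. Of 18012 probe sets tested, 4122 were higher at 24 h (22.9%) and 3309 were lower (18.4%). A difference of at least 2-fold was called for 970 higher probe sets (5.39%) and 507 lower ones (2.81%). All 3 arrays at 24 h lay above all 3 at 5 h for 3273 probe sets (18.2%) and below them for 2573 (14.3%). Of the called probe sets, 4095 of the 4122 higher and 3301 of the 3309 lower moved the same way in all 3 pairs. The paired test selects for such agreement, so it is no separate support. Among probe sets not called, 4348 of 10581 (41.1%) did so. In 4 sets of 4503 probe sets ranked by mean intensity, 802 were higher and 328 lower in the dimmest set, 1139 and 562 in the next, 1172 and 1008 in the third and 1009 and 1411 in the brightest.

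The direction of the whole set depended on scaling. The called probe sets were 55.5% higher as deposited, 37.4% higher when each array was centred on its median and 48.7% higher after quantile normalization. The median log2 difference over all probe sets tested was 0.06, and centring shifted it by -0.15 to -0.09. At 2-fold or more, 673 were higher and 854 lower after centring, the reverse of the order as deposited. The differences given for genes are those of the values as deposited, and centring lowers each of them by about the same shift. Without the replicate block, 1103 probe sets were called higher and 820 lower, and without the pair numbered 1 the counts were 2506 and 2147. Without the pair numbered 3, which stood apart, 3452 were called higher and 2747 lower.

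**Figure D1:**
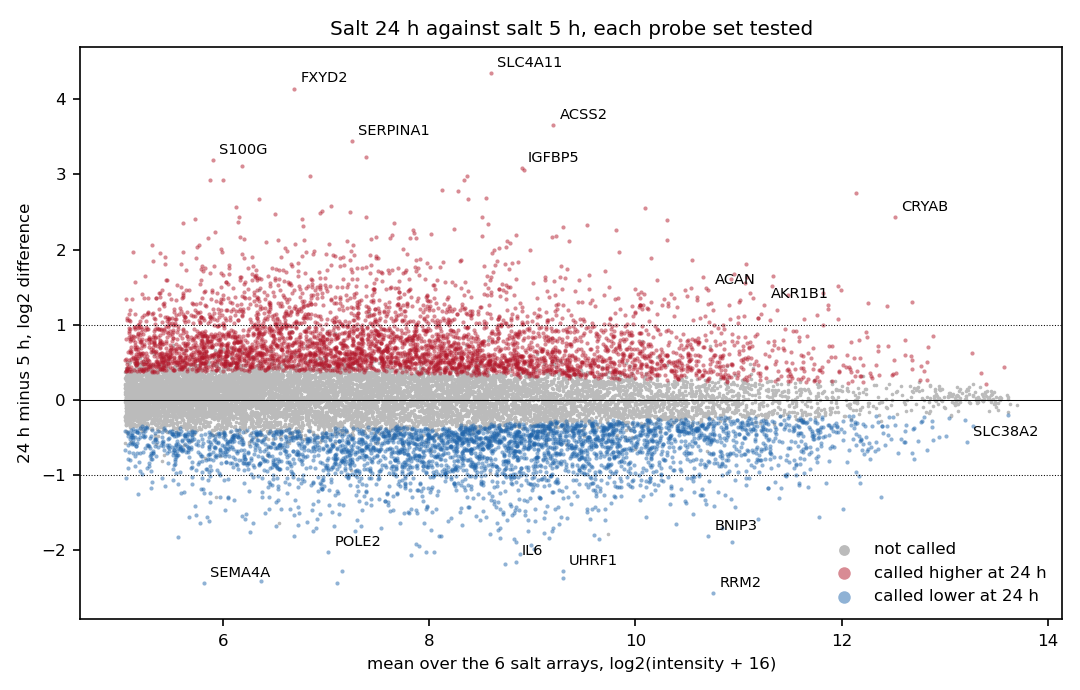
Difference between 24 h and 5 h (log2) for each tested probe set against its mean level on the 6 salt arrays (log2 of intensity plus 16), with called probe sets coloured by direction. Higher calls outnumber lower ones among dimmer probe sets (802 and 328 in the dimmest of 4 sets) and not among the brightest (1009 and 1411), and the greatest rises include SLC4A11 and FXYD2.

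In the following, each gene is represented by its brightest tested probe set, which gives 7910 genes, of which 1930 were higher (24.4%) and 1664 lower (21.0%). These shares are the background for every gene list below, and the median log2 difference over these genes was 0.05. After centring that median was -0.11. Of all 18012 probe sets, 2868 were called higher and 4810 lower after centring, and 1103 and 820 without the block. Counts without the replicate block are given as well, because nearly all lists lost calls without it. RNA was taken from whole cultures, so a change in the share of cells that express a gene and a change in RNA per cell cannot be told apart.

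**Figure D2:**
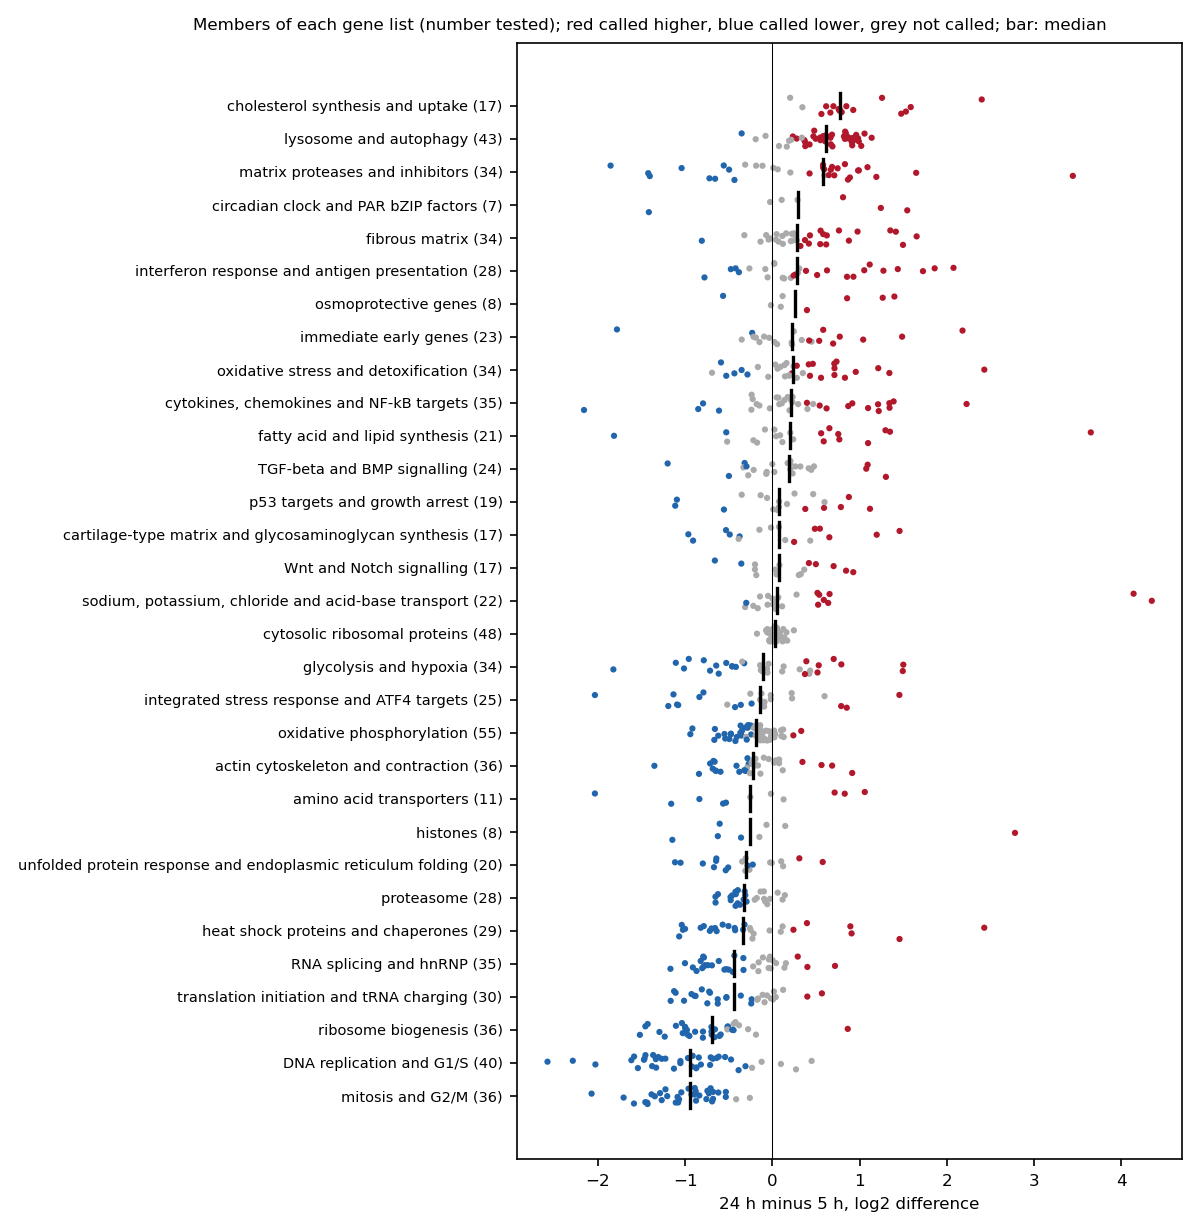
Log2 difference, 24 h minus 5 h, of every tested member of the gene lists, with the median of each list and the called members coloured by direction. The DNA replication and mitosis lists, both with a median of -0.94, lie lowest, and the cholesterol list, with a median of 0.77, lies highest.

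On the log2(value + 16) scale the greatest rise was in SLC4A11, a membrane transporter of the bicarbonate transporter family. Its intensity was 99.9, 31.2 and 98.6 at 5 h (replicates 1, 2 and 3) and 1805.4, 1914.1 and 1503.2 at 24 h. The groups were far apart, and the log2 difference was 4.35 ± 0.28 (moderated SE of the limma fit, adjusted p = 0.00011). This SE, used after every log2 difference here, borrows variance across probe sets and is not the spread of the pairs. The pair differences of SLC4A11 were 3.97, 5.35 and 3.73. FXYD2, the gamma subunit that modulates the sodium-potassium pump, measured 17.0, 0.1 and 11.9 at 5 h and 446.1, 670.3 and 242.0 at 24 h. It was near the floor of the scale at 5 h, so its place in the order depends on the pseudocount, and clear of it on every 24 h array, with a log2 difference of 4.14 ± 0.36 (adjusted p = 0.00018). KCNK17, a two-pore-domain potassium channel gene, rose from 11.4, 6.1 and 22.8 to 170.9, 138.1 and 154.2, a log2 difference of 2.57 ± 0.17.

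Rises this large were few among ion transport genes. Of 22 tested genes for sodium, potassium, chloride and acid-base transport, 8 rose (36.4%) and 1 fell (4.55%). Over all genes 24.4% rose and 21.0% fell, so rises were more frequent and falls rarer in this list. Of the 22, 2 rose by at least 2-fold, and the median was 0.05, equal to the median of all genes. Without the block 2 rose and 0 fell. With centred arrays 3 rose and 5 fell, beside 2868 higher and 4810 lower of all 18012 probe sets. FXYD6, the neighbour of FXYD2 in the genome, rose by 0.59 ± 0.10, and its level was set mainly by replicate number, at 2586.8, 2145.1 and 325.3 at 5 h and 4001.1, 3631.0 and 431.7 at 24 h. The chloride channel gene CLIC1 fell by 0.30 ± 0.08 on the log2 scale, and was not called when the intensity trend was left out of the test. ATP1B1, the beta subunit of the pump itself, was not called (log2 difference -0.22, adjusted p = 0.097), but was called lower after centring (-0.37) and without the pair numbered 2 (-0.30). KCNK5, another potassium channel gene of the KCNK17 family, read 216.3, 140.5 and 170.3 at 5 h and 248.8, 149.4 and 259.6 at 24 h and was not called (adjusted p = 0.15), except without the pair numbered 2 (0.38, adjusted p = 0.017).

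Among 8 tested osmoprotective genes, 4 rose and 1 fell, with a median of 0.26; without the block 2 rose and 1 fell. AKR1B1, the aldose reductase that makes sorbitol, measured 1536.0, 1720.8 and 1415.7 at 5 h and 3570.1, 4809.4 and 3086.9 at 24 h. Every 24 h array exceeded every 5 h array, and the log2 difference was 1.27 ± 0.09 (adjusted p = 0.00013). The water channel gene AQP1 rose within each pair, from 261.5 to 734.7, from 101.9 to 329.4 and from 400.4 to 949.6, although the groups overlapped and the call was absent without the block (adjusted p = 0.16). SGK1, a kinase that controls sodium transporters, rose by 0.86 ± 0.13.

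SLC38A2 was the osmoprotective gene that fell. It read 10516.2, 11326.8 and 12946.7 at 5 h and 7238.8, 7314.2 and 8981.7 at 24 h, a log2 difference of -0.56 ± 0.06 (adjusted p = 0.00046). Each 24 h array lay below each 5 h array, near the top of the measured range, where arrays can saturate. A dimmer SLC38A2 probe set, at a mean of 2973.0 at 5 h and 1248.3 at 24 h, fell by 1.28. SLC6A6 stayed dim on all 6 arrays, between 21.2 and 35.8, and was not called.

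**Figure D3:**
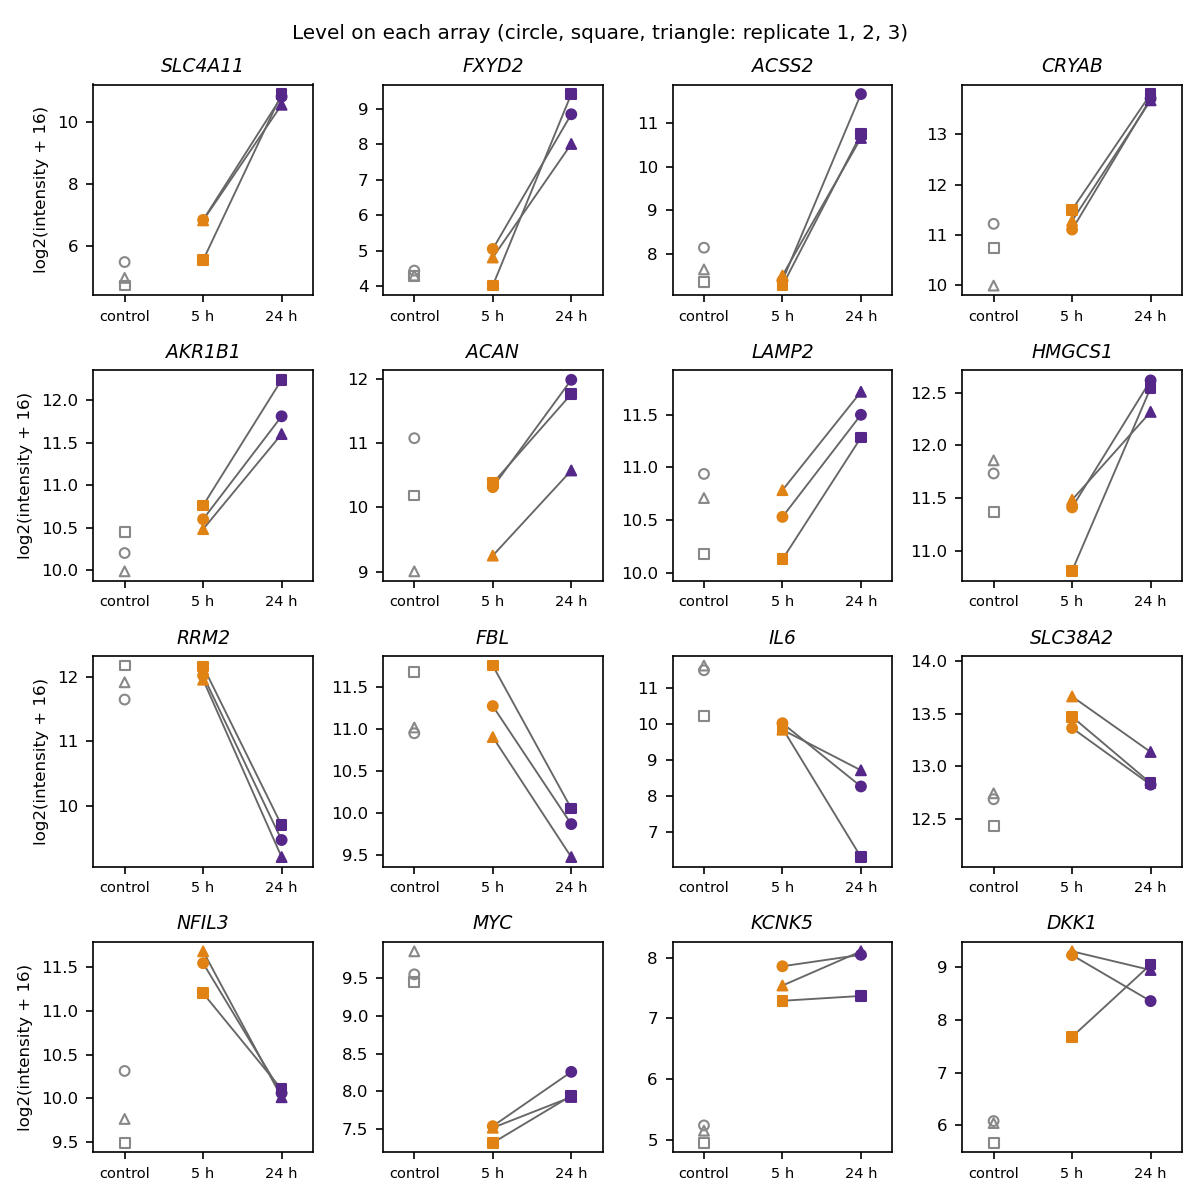
Intensity (log scale) of 16 genes on each array, with lines joining the 5 h and 24 h arrays of the same replicate number and open grey points for the untreated arrays. For SLC4A11 the 24 h arrays read 1503.2 to 1914.1 and the 5 h arrays 31.2 to 99.9, while for RRM2 the order was reversed, with 578.0 to 818.6 at 24 h and 3952.4 to 4560.4 at 5 h.

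The other genes with the greatest rises were of varied function. After SLC4A11 and FXYD2 came ACSS2, the cytosolic enzyme that makes acetyl-CoA from acetate. It measured 150.3, 137.6 and 164.4 at 5 h and 3258.7, 1709.1 and 1607.0 at 24 h, a log2 difference of 3.65 ± 0.20 (adjusted p = 8.1e-05). SERPINA1, the secreted inhibitor alpha-1-antitrypsin, went from 27.4, 26.2 and 37.5 to 627.5, 260.2 and 698.6, with the smaller rise in the pair numbered 2. S100G, a small calcium-binding protein gene, was likewise at the floor at 5 h, at 2.1, 2.7 and 6.9, and reached 150.8, 88.1 and 322.3.

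IGFBP5, a secreted binding protein of insulin-like growth factors, rose by 3.08 ± 0.15, in spite of levels that differed widely between replicates. At 5 h it read 313.6, 240.4 and 36.1, and at 24 h 2216.9, 2862.9 and 400.0, so the pairs moved alike while the replicate numbered 3 stayed low. Without the block its adjusted p was 0.084. The complement receptor gene C5AR2 rose by 3.06 ± 0.16, from 156.4, 88.6 and 248.6 to 1338.2, 1171.3 and 1687.8. PTGS1, the constitutive cyclooxygenase, rose by 2.93 ± 0.17, and ITGA10, a collagen-binding integrin of chondrocytes, rose by 2.67 ± 0.13.

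CP, which encodes the copper protein ceruloplasmin, rose by 2.79 ± 0.28, with 24 h values of 1061.5, 309.6 and 1120.8. The linker histone gene H1-2 rose by 2.78 ± 0.39, and its 24 h values of 489.0, 2224.7 and 458.5 show that the array numbered 2 was far above the others. LRRN1 (2.98), TSPAN1 (2.68) and LY6G6C (2.58) complete the 15 greatest rises with KCNK17. The adjusted p of these 15 genes was 7.0e-05 to 0.0011. The ranking took only called genes whose groups of arrays did not overlap, so that separation is no separate support. A further 5 genes were picked for the least spread over pairs among those called higher at 2-fold or more. Their SD over pairs of 0.01 to 0.04 follows from that choice. They were the forkhead factor gene FOXO4 (1.35), ANKRD49 (1.74), the zinc finger gene ZNF181 (1.31), the autophagy gene WDR45 (1.14) and TCP11L1 (1.06).

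Lysosomal genes rose broadly. Of 43 tested genes for lysosome and autophagy, 35 rose and 1 fell, with a median log2 difference of 0.61 against 0.05 over all genes; without the block 13 rose and 0 fell. LAMP2, a major protein of the lysosomal membrane, measured 1463.3, 1102.7 and 1747.8 at 5 h and 2880.4, 2477.2 and 3353.3 at 24 h. All 24 h arrays were higher, and the log2 difference was 1.02 ± 0.09 (adjusted p = 0.00017). NPC1, which exports cholesterol from lysosomes, rose by 1.14 ± 0.13. ASAH1, an acid ceramidase, rose by 1.06 ± 0.09, and PSAP, the precursor of the sphingolipid activator proteins, by 0.84 ± 0.08.

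Most members moved by less than 2-fold, and 3 of the 35 reached it. Cathepsin genes were among those that rose: CTSL by 0.98, CTSF by 0.93, CTSD by 0.83 and CTSB by 0.67. So did several subunit genes of the proton pump that acidifies the lysosome, such as ATP6V1H (0.69) and ATP6V0E1 (0.61). TFEB, which encodes a transcription factor for lysosomal genes, was not called, at -0.08. WIPI1, an early autophagy gene, was the member that fell, by 0.35.

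**Figure D4:**
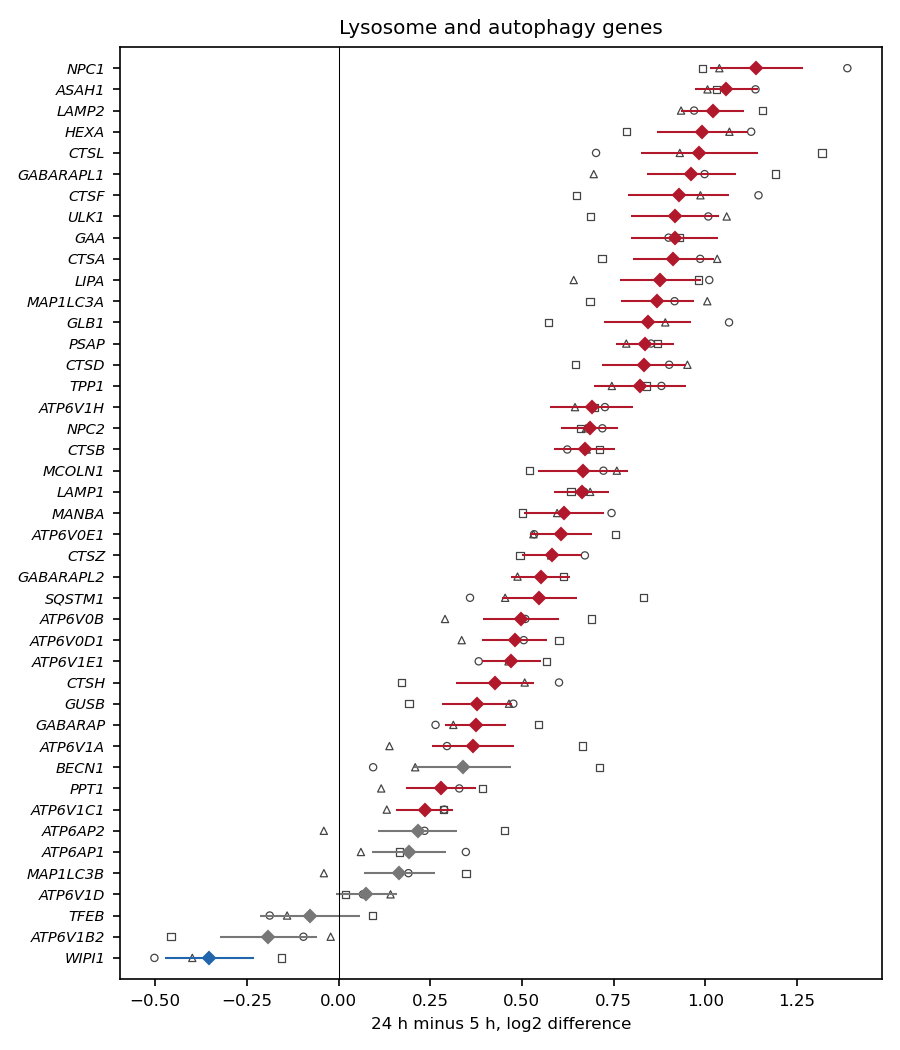
Log2 difference, 24 h minus 5 h, of each tested lysosome and autophagy gene. Diamonds mark the fitted difference, bars 1 moderated SE and open symbols the 3 pairs. Of the 43 genes, 35 were called higher (red) and WIPI1 was called lower (blue).

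Genes of sterol synthesis and uptake rose together. Of 17 tested, 15 rose and 0 fell, with a median of 0.77; without the block 7 rose and 0 fell. HMGCS1, which makes the precursor used by the rate-limiting reductase of the pathway, measured 2704.1, 1776.6 and 2843.4 at 5 h and 6256.4, 5951.0 and 5082.7 at 24 h, a log2 difference of 1.26 ± 0.15 (adjusted p = 0.00056). FDFT1, the squalene synthase, rose by 1.48 ± 0.13, DHCR7, the last reductase of the pathway, by 1.59 ± 0.16, and TM7SF2, a sterol reductase that was dim at 5 h, by 2.4 ± 0.18. Of 21 tested genes for fatty acid and lipid synthesis, 9 rose and 2 fell, with a median of 0.21; without the block 4 rose and 1 fell. ACLY, which makes cytosolic acetyl-CoA from citrate, rose by 1.30 ± 0.13 and the desaturase gene FADS2 by 1.35 ± 0.10. AGPAT5, an acyltransferase of phospholipid synthesis, fell from 536.3, 527.7 and 448.0 to 109.1, 152.4 and 135.6.

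Matrix genes moved in both directions. ACAN, which encodes aggrecan, the proteoglycan that gives the nucleus pulposus its charge, measured 1255.5, 1310.2 and 592.2 at 5 h and 4025.9, 3452.5 and 1505.6 at 24 h. It rose in every pair, by 1.46 ± 0.10 on the log2 scale (adjusted p = 0.00011), while the replicate numbered 3 stayed lower at both times. Without the block its adjusted p was 0.086. The small proteoglycan gene PRELP rose by 1.20 ± 0.08. UGDH, which makes the sugar precursor of glycosaminoglycans, fell by 0.91 ± 0.08, and HAS2, a hyaluronan synthase, fell from 1170.0, 1253.5 and 934.1 to 590.8, 574.4 and 522.9.

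Over the list of cartilage-type matrix and glycosaminoglycan synthesis, 6 of 17 rose and 5 fell, with a median of 0.08. Without the block 0 rose and 2 fell. After centring 4 rose and 7 fell with a median of -0.08, beside -0.11 over all genes. COL2A1, the collagen of cartilage, was not called, with 167.5, 158.2 and 38.1 at 5 h and 221.3, 140.5 and 29.1 at 24 h. Fibrous matrix genes rose more often than they fell, at 16 and 1 of 34, with a median of 0.28; without the block 6 rose and 0 fell. COL12A1, a collagen that lies on fibrils, went from 1189.4, 1330.9 and 1508.2 to 3500.8, 3360.1 and 3949.1, a log2 difference of 1.42 ± 0.08. ASPN, a small proteoglycan that binds collagen, rose by 1.66 ± 0.13, FBN1, the fibrillin of microfibrils, by 0.88 ± 0.10, and the dim POSTN by 1.5 ± 0.16. SERPINH1, the collagen chaperone, was the member that fell, by 0.81.

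Of 34 tested matrix proteases and their inhibitors, 18 rose and 9 fell, with a median of 0.58; without the block 9 rose and 3 fell. The gelatinase gene MMP2 rose in each pair, from 2134.5 to 4520.2, from 1735.2 to 4081.3 and from 1075.4 to 2124.1. HTRA1, a secreted serine protease, rose by 0.99 ± 0.10, and the inhibitor TIMP3 by 0.87. ADAMTS1 fell from 1776.9, 931.6 and 2077.5 to 323.0, 608.5 and 338.7, a log2 difference of -1.86 ± 0.33 (adjusted p = 0.0032). The aggrecanases differed in direction: ADAMTS4 fell by 1.41 ± 0.15 and ADAMTS5 rose by 0.75 ± 0.16, from a dim 22.5 ± 4.6 (SD, n = 3) to 50.3 ± 20.2. CST3, a cysteine protease inhibitor, rose by 1.65 ± 0.10 on its brightest probe set, but its other 2 probe sets read -0.41 and -0.67, so its direction is uncertain.

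Chaperone genes fell more often than they rose. Of 29 tested, 6 rose and 16 fell, with a median of -0.33. Without the block 2 rose and 7 fell, and after centring 4 rose and 19 fell. CRYAB, the small heat shock protein alpha-B-crystallin, measured 2188.9, 2885.4 and 2470.7 at 5 h and 13375.4, 14234.6 and 13054.2 at 24 h, a log2 difference of 2.43 ± 0.08 (adjusted p = 3.0e-05). These 24 h values lie near the top of the measured range, where arrays can saturate. The other tested small heat shock genes of the list, picked out as a class after their values were seen, were HSPB2 (1.46), HSPB6 (0.91), HSPB8 (0.90) and HSPB1 (0.40). All of them were called higher. The groups of HSPB6, HSPB8 and HSPB1 overlapped, and HSPB1 did not rise in the pair numbered 2 (-0.01). The sixth that rose was BAG3, a cochaperone (0.24). HSPB2 is the direct neighbour of CRYAB in the genome.

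Among those that fell were chaperonins and cochaperones. HSPD1, the mitochondrial chaperonin, read 5918.1, 7761.1 and 6103.2 at 5 h and 3216.9, 3638.1 and 2820.0 at 24 h, a log2 difference of -1.03 ± 0.08. CCT5, a subunit of the cytosolic chaperonin, fell by 1.04 ± 0.09, and STIP1, which links HSP70 to HSP90, by 1.0 ± 0.10. HSPA1A, the inducible HSP70, was not called on its brightest probe set, with 3801.6, 3448.3 and 5220.6 at 5 h and 3781.1, 6127.6 and 3776.4 at 24 h. It was called higher without the pair numbered 3 (0.41, adjusted p = 0.015), and 3 of its other 5 probe sets were called lower, so its direction is uncertain. Of 20 tested genes for folding in the endoplasmic reticulum, 2 rose and 10 fell, with a median of -0.31; without the block 0 rose and 4 fell. MANF, a secreted stress factor, fell by 1.12 ± 0.10, SDF2L1 by 1.05 ± 0.11 and the lectin chaperone gene CANX by 0.65 ± 0.10.

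**Figure D5:**
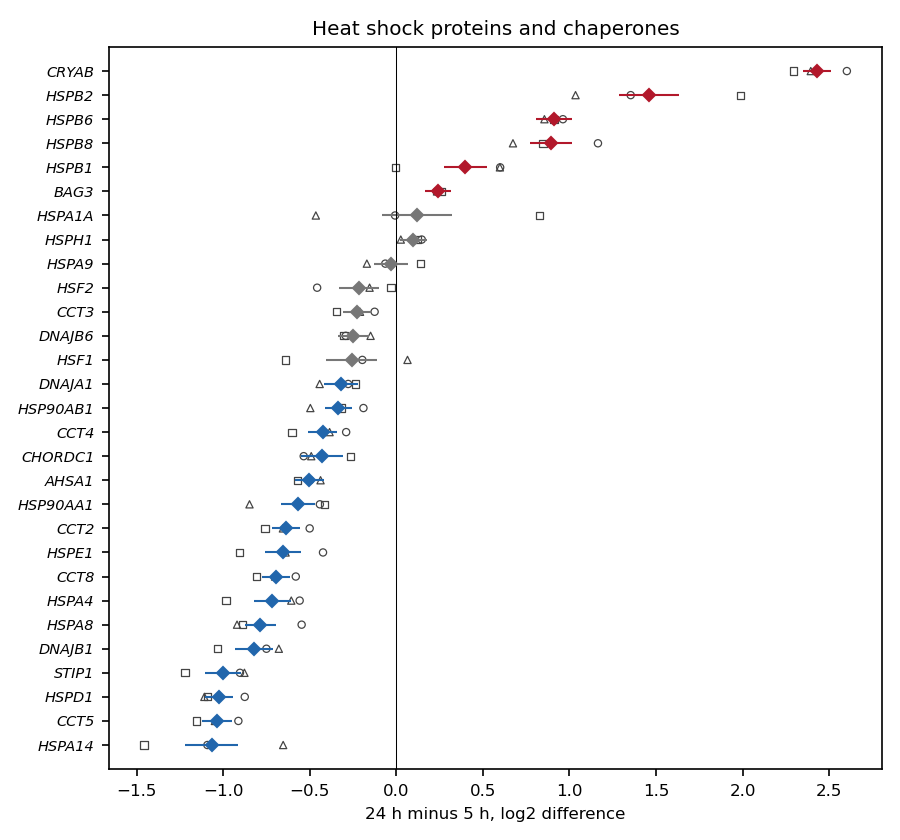
Log2 difference, 24 h minus 5 h, of each tested heat shock and chaperone gene. Diamonds mark the fitted difference, bars 1 moderated SE and open symbols the 3 pairs. CRYAB (2.43) and the HSPB genes stand to the right of 0, and CCT5 (-1.04) and HSPD1 (-1.03) are among those to the left.

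Genes of cell division fell almost throughout. Of 40 tested genes for DNA replication and entry into S phase, 0 rose and 35 fell, with a median of -0.94; of 36 for mitosis, 0 rose and 34 fell, also with a median of -0.94. Without the block 0 rose in either list, and 20 and 16 fell. RRM2, the ribonucleotide reductase subunit that limits the supply of DNA precursors, measured 4135.5, 4560.4 and 3952.4 at 5 h and 697.2, 818.6 and 578.0 at 24 h. Its log2 difference of -2.58 ± 0.09 (adjusted p = 3.0e-05) was the greatest fall among the genes ranked. UHRF1, which helps copy DNA methylation, fell from 1092.9, 1499.5 and 1582.4 to 233.0, 210.2 and 393.1, and POLE2, a subunit of a replicative polymerase, from 253.0, 271.7 and 216.8 to 43.4, 52.1 and 49.5. The groups were apart for each of these genes, but the ranking of the greatest falls required this, so it is no separate support.

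PCNA, the sliding clamp of replication, fell by 1.31 ± 0.09. Among mitotic genes, BIRC5, a subunit of the chromosomal passenger complex, fell by 1.39 ± 0.11, the centromere gene CENPN by 1.43 ± 0.11 and CKS1B, a partner of cyclin-dependent kinases, by 1.35 ± 0.10. PLK1, a mitotic kinase, fell by 1.09 ± 0.09 with overlapping groups, since its levels also differed between replicates, at 1597.2, 2010.9 and 934.4 at 5 h and 707.8, 975.1 and 435.8 at 24 h. The cell-cycle factor gene MYBL2 (-2.07), CDCA7 (-2.28), the histone chaperone gene ASF1B (-1.85), NDE1 (-1.85) and DCTPP1 (-1.84) were also among the 15 greatest falls. Of 8 tested histone genes, H1-2 rose and 4 fell, H2AX among them, by 1.15 ± 0.10; without the block 1 rose and 0 fell.

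Genes for making ribosomes fell, and those for ribosomal proteins did not pass the test. Of 36 tested genes for ribosome biogenesis, 1 rose and 29 fell, with a median of -0.70; without the block 1 rose and 11 fell. FBL, the methyltransferase that modifies ribosomal RNA, measured 2465.5, 3454.6 and 1902.4 at 5 h and 916.5, 1044.8 and 693.4 at 24 h, a log2 difference of -1.52 ± 0.10 (adjusted p = 0.00011). LYAR, a nucleolar protein gene, fell by 1.94 ± 0.11, DKC1, which makes pseudouridine, by 1.46 ± 0.12, NOP56 by 1.23 ± 0.11 and the abundant nucleolar protein gene NCL by 0.98 ± 0.07. HEATR1, a processing factor, was the member that rose, by 0.87. None of the 48 tested genes for cytosolic ribosomal proteins was called by limma, and at an unadjusted p under 0.05 there was 1 higher and 1 lower; their median was 0.03. After centring 0 rose and 11 fell, and after quantile normalization 0 rose and 1 fell. Over all 18012 probe sets, centring gave 2868 higher and 4810 lower calls, so falls were common throughout in that setting.

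Other genes of protein and RNA production fell more often than they rose. Of 30 genes for translation initiation and tRNA charging, 2 rose and 18 fell, with a median of -0.44, and without the block 0 rose and 8 fell. EEF1E1, a scaffold of the synthetase complex, fell by 1.17 ± 0.10 and the synthetase gene EPRS1 by 1.01 ± 0.09. EIF4EBP1, a repressor of cap-dependent translation, fell too, by 1.13 ± 0.12. Of 35 splicing genes, 3 rose and 20 fell, with a median of -0.44, and without the block 0 rose and 9 fell. The splicing regulators SRSF7 and TRA2B fell by 0.91 ± 0.09 and 0.79 ± 0.08, and HNRNPM by 0.78 ± 0.08. Of 28 proteasome genes, 0 rose and 17 fell, with a median of -0.32, and none reached 2-fold; without the block 0 rose and 3 fell. PSMD14, the deubiquitinase of the proteasome lid, fell by 0.65 ± 0.08.

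The 2 lists of energy genes had small medians, although single glycolytic and hypoxia-linked genes differed by more than 2-fold. Of 55 genes for oxidative phosphorylation, 2 rose and 24 fell, with a median of -0.19; none reached 2-fold, 0 rose and 6 fell without the block, and 39 fell after centring. NDUFS6, a subunit of complex I, fell by 0.94 ± 0.10 and ATP5MC1, a subunit of ATP synthase, by 0.92 ± 0.13. Glycolytic and hypoxia-linked genes moved both ways, with 8 of 34 higher, 13 lower and a median of -0.10; without the block 3 rose and 5 fell. BNIP3, a hypoxia-induced mitophagy gene, fell from 3524.0, 3365.5 and 2567.6 to 864.2, 932.2 and 820.4, a log2 difference of -1.82 ± 0.10. The glycolytic enzyme gene TPI1 fell by 1.11 ± 0.09, while the aldolase gene ALDOC rose by 1.5 ± 0.12 and ANGPTL4, an inhibitor of lipoprotein lipase, by 1.5 ± 0.15.

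Among amino acid genes, several carriers and one-carbon enzymes fell. SLC7A5, the large neutral amino acid carrier, measured 493.2, 513.0 and 468.9 at 5 h and 121.2, 68.5 and 147.7 at 24 h, a log2 difference of -2.03 ± 0.20 (adjusted p = 0.00027). SLC1A5, a glutamine carrier, fell by 1.16 ± 0.13. Of 11 tested amino acid transporter genes, 3 rose and 5 fell, with a median of -0.25, and without the block 2 rose and 3 fell. Of 25 genes of the integrated stress response, the ATF4 programme, 3 rose and 10 fell, with a median of -0.14, and without the block 0 rose and 3 fell. The 3 that rose were NUPR1 (1.46), DDIT4 (0.85) and CEBPB (0.79). The 12 not called included DDIT3, TRIB3, CHAC1 and PPP1R15A, so this list did not fall as a unit. The serine and one-carbon enzymes SHMT2, MTHFD2 and PHGDH fell by 1.19 ± 0.12, 1.09 ± 0.13 and 1.08 ± 0.12. The lactate carrier gene SLC16A1, picked for its small spread over pairs, fell from 819.5, 876.4 and 538.5 to 234.7, 263.5 and 150.4. The other falls of 2-fold or more with the least spread over pairs were GCSH, of glycine cleavage (-1.31), UPP1, of uridine breakdown (-1.43), CENPP, a centromere gene (-1.51), and the transcription factor gene ETS2 (-1.10), whose other probe set read -0.31 and was not called.

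Inflammatory genes did not move as 1 group. Of 35 tested cytokine, chemokine and NF-kB target genes, 12 rose and 4 fell, with a median of 0.21; without the block 3 rose and 1 fell. IL6, a secreted cytokine, measured 1027.2, 930.7 and 903.8 at 5 h and 291.7, 62.7 and 404.3 at 24 h. All 24 h arrays were lower, the array numbered 2 most of all, and the log2 difference was -2.16 ± 0.39 (adjusted p = 0.0033, and 0.061 without the block). The neutrophil chemokine gene GRO1 fell from 1592.6, 2757.4 and 2823.8 to 1027.8, 987.5 and 2050.8, with overlapping groups, and CXCL8, of the same class, fell by 0.61 ± 0.16. The CXCL8 call was absent when the untreated arrays were added to the fit.

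The genes of this list that rose included PTGES, a prostaglandin E synthase, from 14.9, 4.0 and 19.4 to 121.5, 95.8 and 130.3. NFKBIZ, an NF-kB cofactor, rose by 1.39 ± 0.17, SOD2, the mitochondrial superoxide dismutase, by 1.34 ± 0.14 and VCAM1, a leukocyte adhesion molecule, by 1.22 ± 0.13 within pairs that lay far apart in level. Of 28 interferon-response and antigen-presentation genes, 14 rose and 4 fell, with a median of 0.28; without the block 8 rose and 1 fell. IRF9, which completes the interferon-activated factor, rose from 60.3, 24.9 and 65.8 to 279.3, 225.1 and 253.9, a log2 difference of 2.08 ± 0.18. The antiviral gene MX1 rose by 1.86 ± 0.15 and BOLA, a bovine class I histocompatibility gene, by 0.93 ± 0.09, while the immunoproteasome gene PSMB9 fell by 0.78.

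Of 34 tested genes for oxidative stress and detoxification, 15 rose and 5 fell, with a median of 0.23; without the block 6 rose and 0 fell. The glutathione transferase gene GSTM3 rose from 13.6, 10.9 and 20.7 to 202.5, 113.2 and 146.5, and GPX1, a glutathione peroxidase, by 0.83 ± 0.07. Among 36 actin cytoskeleton genes, 4 rose and 16 fell, with a median of -0.23; without the block 2 rose and 5 fell. ACTA2, smooth muscle actin, fell from 303.1, 288.7 and 156.6 to 87.4, 106.4 and 63.6, a log2 difference of -1.35 ± 0.15, and ARPC1B, of the actin-branching complex, fell by 0.84 ± 0.08. FHL1, a LIM protein gene, rose by 0.92 ± 0.10.

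Several transcription factor genes were higher at 5 h. NFIL3, a repressor of the circadian network, measured 2969.0, 2336.9 and 3263.2 at 5 h and 1050.5, 1084.0 and 1016.6 at 24 h, a log2 difference of -1.42 ± 0.12 (adjusted p = 0.00016). The homeobox gene MEOX2 fell from 1143.0, 715.6 and 1015.8 to 342.4, 210.6 and 385.0, the zinc finger gene OSR2 from 245.9, 197.2 and 238.0 to 73.6, 96.7 and 94.2, and KLF5 from 1217.3, 500.6 and 1681.0 to 239.2, 268.5 and 350.1. In each case the arrays of the 2 times did not overlap. SEMA4A, a semaphorin gene, fell from 96.6, 203.3 and 76.6 to values near the floor, 1.3, 15.9 and 9.5.

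Immediate early genes, which respond first to growth factors and stress, rose more often than they fell between these times, at 8 and 2 of 23, with a median of 0.23; without the block 2 rose and 1 fell. EGR1 rose from 137.0, 257.0 and 104.4 to 1718.6, 739.8 and 342.1, with a spread between 24 h arrays that left an adjusted p of 0.06 without the block. DUSP1, a phosphatase of MAP kinases, rose by 1.49 ± 0.18 and CCN2, a matricellular growth factor, by 0.70 ± 0.10. Of 7 circadian genes, 3 rose and 1 fell: BHLHE40 by 1.55 ± 0.23, PER2 by 1.24 ± 0.16 and RORA by 0.81 ± 0.14 upward, and NFIL3 downward, with the same counts without the block. MYC, a driver of growth, rose from 169.8, 143.4 and 167.1 to 290.0, 229.6 and 226.9, and was not called without the pair numbered 1.

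The counts for signalling and arrest genes lay near or below the background of 24.4% higher and 21.0% lower. For the centred medians given here, the median over all genes after centring was -0.11. Of 24 genes tested for TGF-beta and BMP signals, 3 rose (12.5%) and 4 fell (16.7%), with a median of 0.19; without the block 1 rose and 1 fell, and without the pair numbered 2 the counts were 7 and 5. The ligand TGFB3 rose by 1.30 ± 0.13, its receptor TGFBR2 by 1.09 ± 0.09 and the BMP target ID1 by 1.08 ± 0.19, and the activin antagonist FST fell by 1.20 ± 0.11. Of 17 Wnt and Notch genes, 5 rose (29.4%) and 2 fell (11.8%), with a median of 0.08; without the block 1 rose and 0 fell, and after centring 3 rose and 3 fell with a median of -0.07. The Notch modifier LFNG rose by 0.93 ± 0.15 and the Notch ligand JAG1 by 0.85 ± 0.14, and the Wnt receptor FZD4 fell by 0.66 ± 0.15. Of 19 p53 targets and arrest genes, 5 rose (26.3%) and 3 fell (15.8%), with a median of 0.08; without the block 1 rose and 0 fell, and after centring 4 rose and 4 fell with a median of -0.08. The repair gene XPC rose by 1.12 ± 0.13, and GADD45A and GADD45B fell by 1.09 ± 0.21 and 1.11 ± 0.20. NUPR1, a small stress-induced nuclear protein, rose from 1065.1, 419.6 and 1344.6 to 2423.2, 2147.3 and 2498.3, and SLC20A1, a phosphate carrier, rose by 0.86 ± 0.10.

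For several stress genes no difference passed the test. The 95% intervals given are those of the moderated fit. The pair differences of CDKN1A, ATF3, DKK1 and TRIB1 reached outside them, so the intervals understate the spread of the pairs. CDKN1A, the cell-cycle inhibitor p21, read 2224.6, 1723.3 and 2186.0 at 5 h and 2300.1, 2895.1 and 1790.9 at 24 h, a log2 difference of 0.17 with a 95% interval of -0.23 to 0.56. ATF3, a stress-induced factor, was level in pairs 1 and 3 and higher at 24 h in pair 2 (876.6 and 1725.0), with an interval of -0.26 to 0.71. Without the pair numbered 3, CDKN1A and ATF3 were called higher (adjusted p = 0.032 and 0.038). DKK1, a secreted Wnt antagonist, had 5 h values of 586.2, 189.4 and 617.4 and 24 h values of 312.7, 516.1 and 479.1. Its pairs moved in opposite directions: without the pair numbered 2 the difference was -0.61 (adjusted p = 0.00088). With all pairs its moderated interval was -0.78 to 0.87, while the pair differences were -0.87, 1.37 and -0.36. TRIB1, a pseudokinase gene, had a log2 difference of 0.88 with an interval of 0.13 to 1.62 and an adjusted p of 0.061, and it was called without the pair numbered 2 (1.45) or 3 (0.69) and with the untreated arrays in the fit.

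Markers of the labelled cell type were mixed in level. Of 14 nucleus pulposus markers on the array, 8 passed the filter on low values. The keratin genes KRT8, KRT18 and KRT19 did not, at 2.1 to 23.2 on the 6 arrays. CA3 (1.0 to 8.0), NCAM1 (2.9 to 7.3) and SNAP25 (5.9 to 13.9) did not either. Of the 8 that passed, ACAN, CDH2, CXCL12, HIF1A, BASP1, BNIP3 and SLC2A1 were well above the floor, and COL2A1 read 29.1 to 221.3. Of the 8, 1 rose (ACAN) and 4 fell, CXCL12 by 0.79 ± 0.11 and CDH2 by 0.53 ± 0.11 among them; without the block 0 rose and 2 fell. Of 5 annulus and tendon-type fibroblast markers, 3 rose, which were COL12A1, THY1 (by 0.66 ± 0.13) and PDGFRA (by 0.48 ± 0.12). THY1 and PDGFRA were not called without the pair numbered 1, and PDGFRA was not called after centring; without the block 1 of the 5 rose. The summed intensity of the 8 such markers on the array, tested or not, was 6531 to 7588 at 5 h and 8686 to 11984 at 24 h. The part of a change in cell makeup in the matrix results was not tested.

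Of 8 leukocyte markers tested, 1 rose (CD14, by 1.76 ± 0.13) and 1 fell (CSF1R, by 0.56 ± 0.16, and not called without the pair numbered 3). Sums given here are over all markers of a list on the array, tested or not. For the 12 leukocyte markers on the array the sum was 332 to 387 at 5 h and 540 to 542 at 24 h. PTPRC, which marks all leukocytes, read 0.0 to 29.0 and 17.2 to 36.8. Without CD14 the sum over the other 11 markers on the array was 266 to 304 at 5 h and 212 to 309 at 24 h, so the higher sum at 24 h was that of CD14. Endothelial markers were split, with TEK higher by 0.60 ± 0.14 and CLDN5 lower by 0.73 ± 0.13, and their sum was 350 to 650 and 400 to 561. Of 5 smooth muscle and pericyte markers, PDGFRB rose by 0.60 ± 0.15, a call absent without the pair numbered 1, and ACTA2 and CSPG4 fell, and the sum was 855 to 1521 and 603 to 1056. Of 6 skeletal muscle markers 0 rose and 1 fell (ACTA1, by 0.75 ± 0.12), with sums of 1358 to 3698 and 2338 to 3795. Of 5 epithelial markers 1 rose (KRT5, by 0.56 ± 0.11), with sums of 732 to 799 and 1021 to 1066, and of 3 neuron and glia markers 1 rose (S100B, by 0.50 ± 0.08), with sums of 2812 to 2890 and 3555 to 4391. Without the block, 1 endothelial, 1 smooth muscle and 0 skeletal muscle or epithelial markers were called, 1 leukocyte marker rose and 1 neuron and glia marker rose. No red blood cell or cartilage endplate marker was called, of 3 and 5 tested (at an unadjusted p under 0.05, 1 lower and 1 higher), with sums of 238 to 306 and 188 to 233 at 5 h and of 202 to 288 and 219 to 252 at 24 h; after centring or quantile normalization 1 red blood cell marker was called lower.

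Of the 166 named genes that were called, 48 were not called without the replicate block. These were IGFBP5, EGR1, ASPN, ACAN, NUPR1, AQP1, NFKBIZ, TGFB3, VCAM1, PRELP, MMP2, ID1, FBN1, PLK3, JAG1, THY1, TEK, PDGFRB, FXYD6, MYC, KRT5, DKK3, PDGFRA, CLIC1, CDH2, CSF1R, H3-3B, CXCL8, MACROH2A1, ACTN1, PSMD10, FZD4, CRELD2, ACTA1, SNRPB, GRO1, EIF3B, CSPG4, STIP1, PHGDH, PLK1, GADD45A, GADD45B, EIF4EBP1, H2AX, SHMT2, ASF1B and IL6. Of 46 called named genes with another tested probe set, 1 (CST3) had one called the other way and 14 had one that was not called. The 14 were ACTN1, COL12A1, CSPG4, EGR1, ETS2, GPX1, HAS2, HMGCS1, LAMP2, LFNG, NFKBIZ, OSR2, PDGFRA and UQCRB.

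The untreated arrays show where the differences lie against the starting level, as a description with no test. Of the 970 probe sets that rose by at least 2-fold, the untreated mean was nearer the 5 h mean for 753 (77.6%) and nearer the 24 h mean for 217. Of the 507 that fell by at least 2-fold, it was nearer the 5 h mean for 448 (88.4%) and nearer the 24 h mean for 59. RRM2, at 3192.8, 4600.9 and 3844.6 in untreated cells, belongs to the first kind, since its 5 h values were in the same range. SLC4A11 was also nearer its 5 h level, at 29.2, 10.7 and 15.7. NFIL3 belongs to the second kind, with 1255.8, 703.8 and 853.6 untreated, close to its 24 h values. EGR1 had 1152.4, 743.1 and 831.6 in untreated cells and was lower at 5 h. In untreated cells MYC had 734.0, 685.0 and 910.6, and SLC20A1 had 2486.1, 2334.0 and 2575.2. Both were above all salt arrays there, so their rises from 5 h ended below the untreated level. AKR1B1 had 1162.6, 1380.5 and 999.7, below both times in each pair.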

How the data were processed

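RNA of 9 cultures was measured on one-colour Affymetrix bovine arrays, and the 6 salt arrays were compared here. The authors deposited an intensity per probe set on a linear scale, which per the submitters' processing notes came from PLIER, run in Affymetrix Expression Console. The sources used here give no version, setting or normalization between arrays, and no further normalization was applied. Of 24128 probe sets, the 112 control probe sets of the manufacturer were left out. Of the other 24016, 13292 carry 1 gene symbol, 86 several and 10638 none in the platform annotation, and only the first are named. Of these, 13263 were matched by gene number to RefSeq genes of ARS-UCD2.0, with 0 symbols changed, and gene neighbours were read from the same table. No sequence or coordinate is given, and promoter motifs were not analysed here.

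Values were taken as log2(value + 16), which understates differences of dim probe sets. A filter removed the probe sets whose mean lay under the 25th percentile. Differences were fitted with limma 3.58.1 (R 4.3.3), using its moderated test with an intensity trend, and with group and replicate number as terms. Calls used a Benjamini-Hochberg adjusted p under 0.05 over all 18012 probe sets. Every adjusted p given comes from this limma test, in the main fit unless another setting is named beside it. An exact permutation test of 3 pairs cannot go below 0.25. The number of arrays limits the precision. In simulated data with these levels, 100 probe sets above the median level were changed by 1 (log2) and 100 by 2. Of these, 52.0% and 89.0% were called. Far fewer probe sets changed there than were called here, which makes the adjustment stricter. These rates are therefore not the sensitivity of this comparison.

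Pairing follows the numbers in the labels. Deviations from the group means correlated at 0.71, 0.60 and 0.88 between arrays of the same number, and at -0.77 to 0.55 between arrays of different numbers.

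The members, the 31 gene lists and the 10 marker lists were chosen with earlier results of these data known. Named genes were the 15 greatest rises and falls among called genes whose arrays did not overlap and whose higher group reached an intensity of 81.4, the 5 called genes per direction of at least 2-fold with the least spread over pairs, up to 4 called members per list with the smallest adjusted p, and genes fixed by name. Other list members named for a contrast within a list were chosen after their values were seen. In all, 13 alternative settings were tried.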

Additional observations from a re-analysis of the deposited data

How the results depend on the processing

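Across the 13 settings, 0 of the calls made as reported changed direction while called. Counts of calls at any size moved most without the block: without the replicate block 1103 probe sets were called higher and 820 lower, and with all 9 arrays and no replicate block 1456 and 1107. Of the 7431 calls, 1923 were also made without the block, and of 166 called named genes 48 lost their call. With a pseudocount of 64, 471 probe sets rose and 291 fell by at least 2-fold. With a pseudocount of 1 these counts were 1358 and 724. With arrays centred on their medians, 673 rose and 854 fell by at least 2-fold, the reverse of the order as deposited (970 and 507). Leaving out 1 pair gave 2506 to 5302 higher calls and 2147 to 3953 lower ones. At 2-fold or more it gave 940 to 1067 higher and 485 to 588 lower.

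Some genes that were not called changed sign. Leaving out 1 pair in turn gave -0.14 to 0.46 for ATF3, -0.12 to 0.40 for CDKN1A, -0.24 to 0.41 for HSPA1A, -0.61 to 0.51 for DKK1, -0.21 to 0.11 for COL2A1 and -0.095 to 0.029 for SLC6A6. The lowest DKK1 value, without replicate 2, had an adjusted p of 0.00088. After centring, HSPA1A read -0.036 and DKK1 -0.11, and with a pseudocount of 64 COL2A1 read 0.016. The cause was not tested. Promoter motifs were planned and not run. Dim probe sets limit the smallest differences that can be seen.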
